A study of Mus musculus with 2 samples.

Results

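The 10 genes described here make coat pigment or carry the signals by which pigment cells and the rest of the skin speak to each other. They were taken by symbol from the 32285 genes of the deposited matrices, and all 10 were present: Dct, Pmel, Tyr, Tyrp1 and Mlana, the regulator Mitf, the receptors Kit and Ednrb, and the ligands Kitl and Edn3. The skin came from the back of mice at postnatal day 3 and gave 1 single-cell library per group. Genotype Wildtype defines the control library and genotype miR-200b induced the other, named the induced library here, and treatment Dox is given for both. Epidermis and dermis were dissociated apart and pooled at 30 parts to 70 before capture on a 10x Genomics 3′ platform. The labels do not give the strain, the number of animals, the construct that carries the microRNA or the cell type that drives it. With 1 library per group no difference below has a replicate check, and every comparison is between these libraries.

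Melanocytes come from the neural crest and settle in the hair follicle, where they pass melanin to the cells that build the hair shaft. The enzyme tyrosinase (Tyr) makes the first products of melanin from tyrosine, Tyrp1 and dopachrome tautomerase (Dct) act on later intermediates, Pmel forms the fibrils on which the pigment is laid down, and Mlana is a protein of the melanosome, the pigment organelle. Mitf is the transcription factor that sets much of this programme, and it binds short motifs of the E-box type. Kit ligand (Kitl) from surrounding cells acts on the receptor Kit, and endothelin 3 (Edn3) acts on the receptor Ednrb, and both routes are needed for melanocytes to survive and spread in developing skin.

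Values are counts of unique molecular identifiers (UMIs), each standing for a captured RNA molecule, summed over the cells of a class and scaled to counts per 1000000 UMIs (CPM). Intervals in parentheses are 95% intervals and cover counting error only. A ratio is the induced value over the control value, as log2. Class names were rebuilt from marker genes other than the 10 genes, which were also left out of the clustering, and "-like" is meant with each name. Filters and doublet removal left 4816 control cells (median depth 14612.5 UMIs) and 4890 induced cells (median depth 17918.5 UMIs). The libraries shared 7 barcodes among kept cells and 0 among melanocyte-like cells. In 28 of the 37 epithelial clusters 1 library supplied 95% or more of the cells, so epithelial comparisons are given over all epithelial cells first.

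The positions of the genes on mouse genome build GRCm38 are as follows. Dct lies at chr14:118012790-118052244 and Ednrb at chr14:103814625-103844402, both on the minus strand. Pmel at chr10:128704195-128720238 and Kitl at chr10:100015630-100100416 lie on the plus strand. Tyr lies at chr7:87424771-87493512 on the minus strand. Tyrp1 at chr4:80834123-80851719, Mlana at chr19:29697824-29708634 and Mitf at chr6:97807052-98021349 lie on the plus strand, as do Kit at chr5:75574916-75656722 and Edn3 at chr2:174760619-174784042.

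Mitf is known to bind the E-box forms CATGTG and CACGTG. Both were searched on either strand in RefSeq promoter windows of 300 bases (250 before to 50 after the start, GRCm38.p6) for the 8 genes that had an entry, in 11 windows. CATGTG was found for Dct (with its first base 232 and 150 bases before the start), Tyr (21 bases before) and Tyrp1 (46 bases before). No window of Mitf, Kit, Kitl, Ednrb or Edn3 held CATGTG, and no window of the 8 genes held CACGTG. Of 32851 promoters of the same length, 14.2% held CATGTG, 7.15% held CACGTG and 20.4% held either. A match is a description of the letters and not a shown binding site. The windows with a match are printed on the strand of the gene, with the motif in capitals, because Tyr, Dct and Tyrp1 are the pigment enzymes whose levels are compared below. They lie at chr14:118052197-118052496 (minus strand, Dct), chr7:87493463-87493762 (minus strand, Tyr) and chr4:80833963-80834262 (plus strand, Tyrp1).
Dct: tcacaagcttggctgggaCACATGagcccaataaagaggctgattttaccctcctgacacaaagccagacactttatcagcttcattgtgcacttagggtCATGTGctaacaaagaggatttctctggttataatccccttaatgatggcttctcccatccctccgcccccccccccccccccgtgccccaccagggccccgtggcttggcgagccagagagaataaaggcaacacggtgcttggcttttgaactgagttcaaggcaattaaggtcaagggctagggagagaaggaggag
Tyr: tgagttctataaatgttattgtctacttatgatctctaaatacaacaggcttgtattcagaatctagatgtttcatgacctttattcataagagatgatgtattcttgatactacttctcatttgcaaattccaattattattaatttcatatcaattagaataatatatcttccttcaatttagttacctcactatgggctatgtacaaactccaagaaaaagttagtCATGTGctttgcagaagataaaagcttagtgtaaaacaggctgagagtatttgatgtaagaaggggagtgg
Tyrp1: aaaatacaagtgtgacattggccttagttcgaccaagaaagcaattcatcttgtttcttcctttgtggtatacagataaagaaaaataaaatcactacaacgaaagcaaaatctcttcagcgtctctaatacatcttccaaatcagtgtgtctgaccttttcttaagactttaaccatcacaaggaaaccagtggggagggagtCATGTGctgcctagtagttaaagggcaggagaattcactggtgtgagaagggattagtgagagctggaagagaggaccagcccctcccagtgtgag

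The induced microRNA is printed next, since it is what the labels say differs between the libraries. Its seed, bases 2 to 8, is in capitals. RefSeq places mmu-miR-200b-3p at chr4:156055685-156055706 on the minus strand, and mmu-miR-429-3p and mmu-miR-200c-3p share its seed. Of the 10 genes only Ednrb held the DNA match of the seed, CAGTATT, in its longest annotated 3′ untranslated region, at bases 2247 to 2253 of 2441. It is shown with 8 bases on each side and the match in capitals. Among 21001 genes, 13.3% held such a match, and among 3′ regions of about the same length as that of Ednrb 24.1% did.
mmu-miR-200b-3p: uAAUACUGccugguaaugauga
Ednrb site: aacattttCAGTATTgataatgt

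The libraries do not count the mature microRNA, so its level in pigment cells was not measured. The annotated transcript Gm13648 (chr4:156052715-156059802, minus strand) spans the microRNA's locus and served as the check of the labels. It stood at 2.20 CPM in control and 527.6 CPM in induced epithelial cells. In melanocyte-like cells it had 0 UMIs of 995255 in the control library, which allows up to 3.01 CPM, and 14 UMIs or 7.17 CPM (3.92 to 12.0) in the induced library. The level was higher in induced fibroblast-like cells, at 26.6 CPM (19.5 to 35.4), and induced endothelial-like cells had 16.3 CPM (8.91 to 27.4), with an interval that overlapped that of melanocyte-like cells. Both classes had 0 UMIs in the control library. Whether these UMIs came from transcripts of the cells or from free RNA of keratinocytes was not tested.

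**Figure D1:**
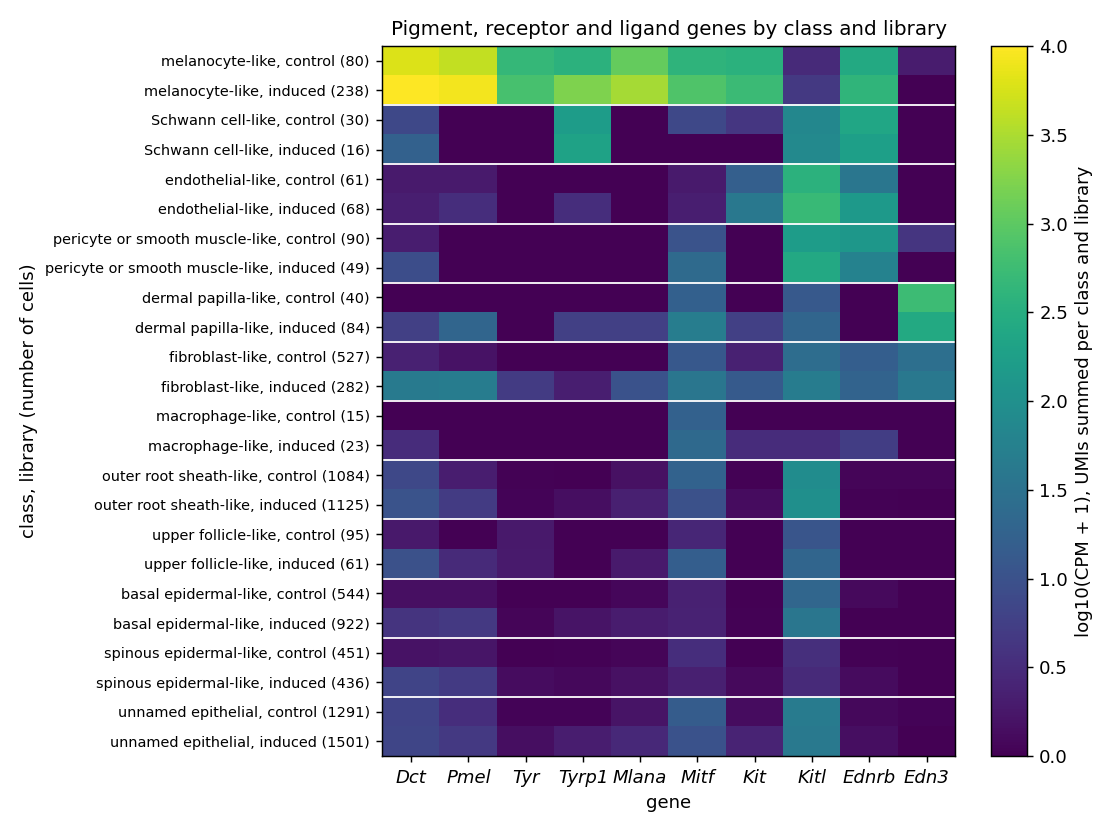
Levels of the 10 genes (columns) in cell classes with the number of cells in each library (rows), as log10(CPM + 1) of summed UMIs; sebaceous gland-like and granular epidermal-like cells, with few cells in 1 library, and unnamed non-epithelial cells are not drawn. Dct, Pmel, Tyr, Mlana and Kit are bright in the melanocyte-like rows, Kitl in endothelial-like and pericyte or smooth muscle-like rows, and Edn3 in the dermal papilla-like rows.

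Melanocyte-like cells formed a cluster of 80 control cells, 1.66% (1.32 to 2.06) of kept cells, and 238 induced cells, 4.87% (4.28 to 5.51). Their median depths were 10158 and 7522.5 UMIs. Of 14 melanocyte markers outside the 10 genes, 13 had UMIs in the control cells and all 14 in the induced cells, Kcnj13 being the marker at 0 in the control library. Sox10 was found in 93.8% of control and 85.7% of induced cells, Pax3 in 98.8% and 96.2%, and Gpnmb in 100% and 99.2%. The label of the class therefore matched its markers in both libraries. The share of cells depends on dissociation and on the mixing of the suspensions, which was set by hand.

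All 5 pigment genes were higher in the melanocyte-like cells of the induced library. Summed over the 5 genes, the level went from 12305 CPM (12088 to 12525) to 23644 CPM (23428 to 23860), a log2 ratio of 0.94 (0.91 to 0.97). Among all genes the median, taken over 6068 with a mean level of 20 CPM or more, had a log2 ratio of 0.0074 in these cells with 5 CPM added to both levels, and 95% of the genes lay between -0.88 and 0.95. Ratios of single genes are given without this addition, which draws the ratios of low genes towards 0. The size of the difference was not the same for each pigment gene.

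Tyrp1, which acts late in the making of brown-black melanin, differed most among the 10 genes. It stood at 374.8 CPM (337.7 to 414.8) in control and 1668 CPM (1611 to 1726) in induced melanocyte-like cells, a log2 ratio of 2.15 (2.0 to 2.31) or 4.45-fold. With 5 CPM added to both libraries only 4 genes of the 6068 had a higher ratio. The median control cell had 24.9 CPM and the median induced cell 784.7 CPM, with highest cells at 2189 and 7815 CPM. The libraries overlapped at the low end, where 40 of 80 control cells and 50 of 238 induced cells had no Tyrp1 UMI, while the 80th percentile of induced cells, 2223 CPM, lay above the highest control cell.

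Mlana came next, at 1115 CPM (1051 to 1183) in control and 2895 CPM (2820 to 2972) in induced cells, a log2 ratio of 1.38 (1.28 to 1.47). In single cells its median was 446.2 CPM in control and 2178 CPM in induced melanocyte-like cells. Mlana was at 0 in 13 control cells and 4 induced cells, and 3 cells held 41.4% of its control UMIs. Pmel, the fibril protein, went from 4291 CPM (4164 to 4422) to 8476 CPM (8347 to 8606), a log2 ratio of 0.98 (0.93 to 1.03). Its cell medians were 2054 and 5917 CPM, and its highest cells had 18726 and 30800.1 CPM.

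Dct, the dopachrome tautomerase, was present in every melanocyte-like cell of both libraries, also at 2000 UMIs per cell. It went from 6069.8 CPM (5918 to 6225) to 9912 CPM (9773 to 10053), a log2 ratio of 0.71 (0.67 to 0.75). The lowest cells had 573.4 CPM in control and 598.2 CPM in induced, the medians were 5253 and 9171 CPM, and the highest cells had 15260.0 and 20329 CPM. Tyr, the tyrosinase, had the smallest difference of the 5 genes. It stood at 454.2 CPM (413.2 to 498.0) in control and 692.3 CPM (655.9 to 730.3) in induced cells, a log2 ratio of 0.61 (0.45 to 0.77). Its cell medians, 372.8 and 496.7 CPM, lay closer together than those of the other pigment genes.

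**Figure D2:**
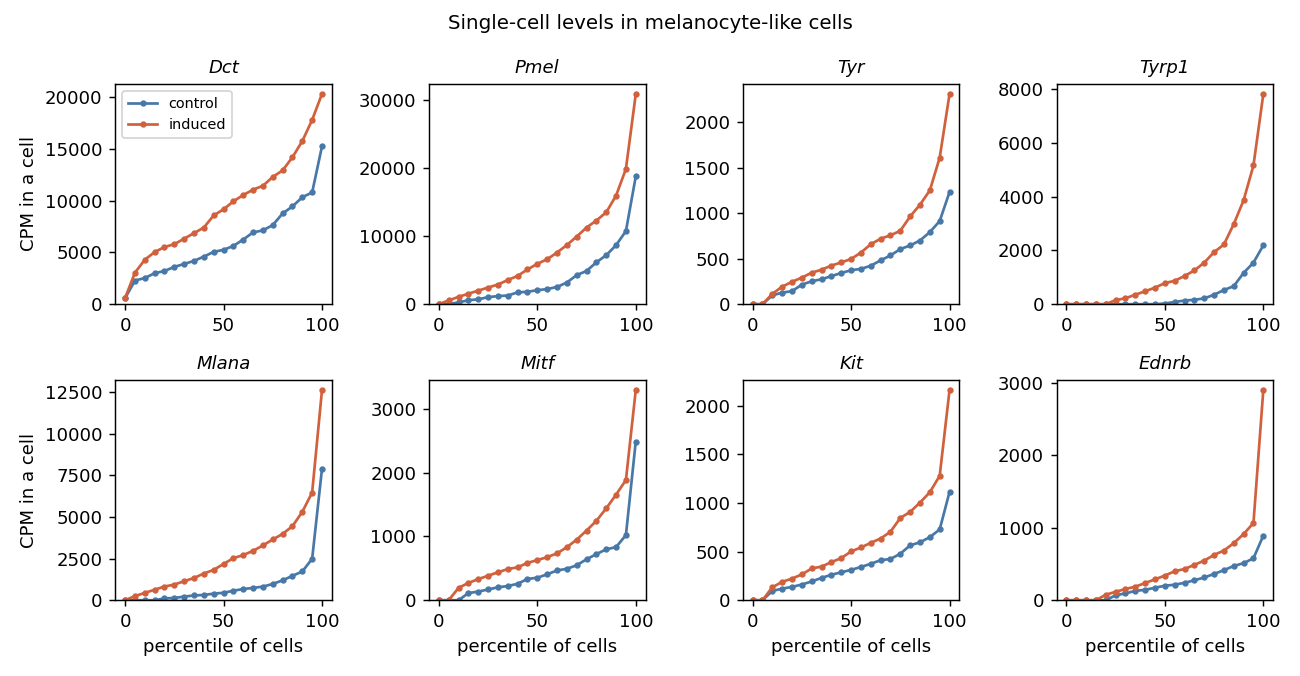
CPM in single melanocyte-like cells (vertical axes, linear, a scale per gene) against the percentile of cells ordered by that gene (horizontal axes), for 80 control cells (blue) and 238 induced cells (orange). The induced curve lies above the control curve over most percentiles for all 8 genes, and the Tyrp1 curves leave 0 near percentile 50 in control and near percentile 20 in induced cells.

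Mitf, the lineage regulator, was higher by about the same ratio as Pmel. It stood at 402.9 CPM (364.4 to 444.3) in control and 798.4 CPM (759.2 to 839.1) in induced melanocyte-like cells, a log2 ratio of 0.99 (0.83 to 1.15). Its cell medians were 353.6 and 629.7 CPM, with 10 control and 14 induced cells at 0. The receptors differed less. Kit went from 355.7 CPM (319.6 to 394.7) to 530.4 CPM (498.6 to 563.7), a log2 ratio of 0.58 (0.40 to 0.75). Ednrb, the gene with the seed match printed above, went from 268.3 CPM (237.1 to 302.5) to 408.4 CPM (380.6 to 437.8), a log2 ratio of 0.61 (0.40 to 0.81). Kit had cell medians of 312.3 and 500.9 CPM, and Ednrb of 199.98 and 340.2 CPM. The ligands were nearly absent from pigment cells, with 2 control and 7 induced UMIs of Kitl and 1 and 0 of Edn3, all at or near the limit of 3 counts, so no ratio is given for them.

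Read against all genes, a ratio of at least 2-fold in CPM plus 5 was reached upward by 131 of 6068 genes (2.16%) and downward by 109 (1.8%) in melanocyte-like cells. Of the 8 genes of the 10 that passed the mean of 20 CPM, 2 were higher by that measure, Tyrp1 and Mlana, and 0 were lower. The other 6 had log2 ratios from 0.57 (Kit) to 0.98 (Pmel and Mitf) with 5 CPM added, and between 2.37% and 8.88% of genes had ratios above theirs. Kitl and Edn3 did not pass the mean level in this class.

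Counting cells with a UMI gave a like picture once each cell was thinned to 2000 UMIs, which left out 0 control and 3 induced cells of the class (54 and 352 over all classes). Tyrp1 was then found in 28.8% (19.2 to 40.0) of control and 63.0% (56.5 to 69.2) of induced melanocyte-like cells, and without thinning in 50% and 79%. Mlana was found in 58.8% (47.2 to 69.7) and 89.8% (85.2 to 93.4). Ednrb went from 27.5% (18.1 to 38.6) to 49.8% (43.2 to 56.4) with intervals clear of each other. The intervals of Mitf, 52.5% (41.0 to 63.8) and 66.0% (59.5 to 72.0), and those of Kit, 55.0% (43.5 to 66.2) and 58.7% (52.1 to 65.1), overlapped. Unthinned, Ednrb was found in 77.5% and 80.7% of cells, Mitf in 87.5% and 94.1%, Mlana in 83.8% and 98.3%, and Kit in 93.8% and 93.3%. Epithelial cells, with median depths of 16094 and 21125.5 UMIs, served as the background. Tyrp1 was found in 0 of 3926 thinned control epithelial cells, with 0.0764% as the share that 3 cells would give, and in 0.078% of 3846 induced ones. For Kit the shares were 0 of 3926 and 0.104%, for Ednrb 0.0509% and 0.026%, and for Mitf 1.76% and 1.30%, all far under the melanocyte-like shares.

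Within a library Dct, Pmel, Tyrp1 and Mlana varied together from cell to cell, Tyr followed them weakly, and Kit did not follow them. At 2000 UMIs per cell, Spearman's rho of Dct with Pmel was 0.57 over 80 control cells and 0.66 over 235 induced cells, and that of Pmel with Tyrp1 was 0.61 and 0.64. Pmel with Mlana gave 0.56 and 0.60, and Dct with Mlana 0.31 and 0.44. Tyr with the other 4 pigment genes gave values from 0.20 to 0.35. Kit with the 5 pigment genes gave values from -0.27 to 0.084. Mitf with these 5 genes gave values from -0.079 (Mlana, control) to 0.24 (Dct, control), and with Pmel -0.021 in control and 0.055 in induced cells. These are descriptions across cells of 1 library each, and the cells share library and capture. Control cells with a Tyrp1 UMI (23 cells) held on average 16.5 Dct and 15.1 Pmel UMIs per 2000, and those without (57 cells) held 9.12 and 4.25. In the induced library the 148 cells with a Tyrp1 UMI held 22.5 Dct and 19.5 Pmel UMIs, and the 87 without held 13.0 and 7.17. Kit went the other way only in the induced library, with 0.88 UMIs in cells with Tyrp1 and 1.48 in cells without, compared with 0.78 and 0.75 in control cells, and this difference between the libraries was not tested.

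Cycling also differed between the libraries, in this class and in others. Counted as cycling where 16 G2/M genes gave 2 or more UMIs of the 2000, 13 of 80 control melanocyte-like cells met the rule, or 16.3% (8.95 to 26.2), and 6 of 235 induced ones, or 2.55% (0.94 to 5.47). Unthinned, the shares were 32.5% and 10.9%. Each of the 16 G2/M genes had a lower CPM in the induced melanocyte-like cells, among them Top2a, a topoisomerase of dividing cells, with 172.8 CPM in control and 6.15 CPM in induced. By the same rule 22.1% (20.8 to 23.5) of control and 14.2% (13.1 to 15.3) of induced epithelial cells were cycling, unthinned 44.3% and 39.99%. Fibroblast-like and dermal papilla-like cells joined gave 6.41% (4.53 to 8.76) and 2.11% (0.78 to 4.53), unthinned 13.4% and 5.46%, so a lower share in the induced library was not seen in melanocyte-like cells alone. In outer root sheath-like cells, however, 9 of the 16 G2/M genes had a ratio above 0, with a median log2 ratio of 0.070. The median was -3.52 in endothelial-like, -4.25 in pericyte or smooth muscle-like and -2.88 in melanocyte-like cells. These medians were over the G2/M genes with a mean of 20 CPM or more, with 5 CPM added. In the melanocyte-like cells not counted as cycling, 67 control and 229 induced, the summed pigment genes had a log2 ratio of 0.94 (0.90 to 0.97). Tyrp1 had 2.08 (1.90 to 2.25), Mitf 0.82 (0.65 to 1.00) and Kit 0.64 (0.44 to 0.84). These cells are most of the class, so ratios near those of the whole class say little about cycling. The 13 and 6 cycling cells had 1.09 (0.99 to 1.18) for the sum and 2.87 (2.45 to 3.29) for Tyrp1. Mitf had 1.84 (1.28 to 2.39) and Kit 0.029 (-0.74 to 0.73) in them.

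Keratin RNA differed between the libraries in several non-epithelial classes. Of 6 keratinocyte keratins, 3 were higher by at least 2-fold in melanocyte-like cells, beside 3 in fibroblast-like, 4 in pericyte or smooth muscle-like, 5 in dermal papilla-like and 2 in endothelial-like cells. Over all genes the shares higher by 2-fold were 2.16%, 4.91%, 9.3%, 11.9% and 4.81% in these classes, in the same order. In melanocyte-like cells these were Krt14 (88.4 to 249.6 CPM), Krt17 (44.2 to 127.6 CPM) and Krt5 (46.2 to 118.9 CPM). Krt15 stood at 32.2 and 16.9 CPM, Krt1 at 115.5 and 180.9 CPM and Krt10 at 146.7 and 244.4 CPM. The sum of the 6 keratins per cell had a median of 407.6 CPM in control and 789.6 CPM in induced cells. In cells under 1000 CPM of these keratins the summed pigment genes had a log2 ratio of 1.01, compared with 0.94 in all cells of the class. The part of free keratinocyte RNA in these values was not tested.

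**Figure D3:**
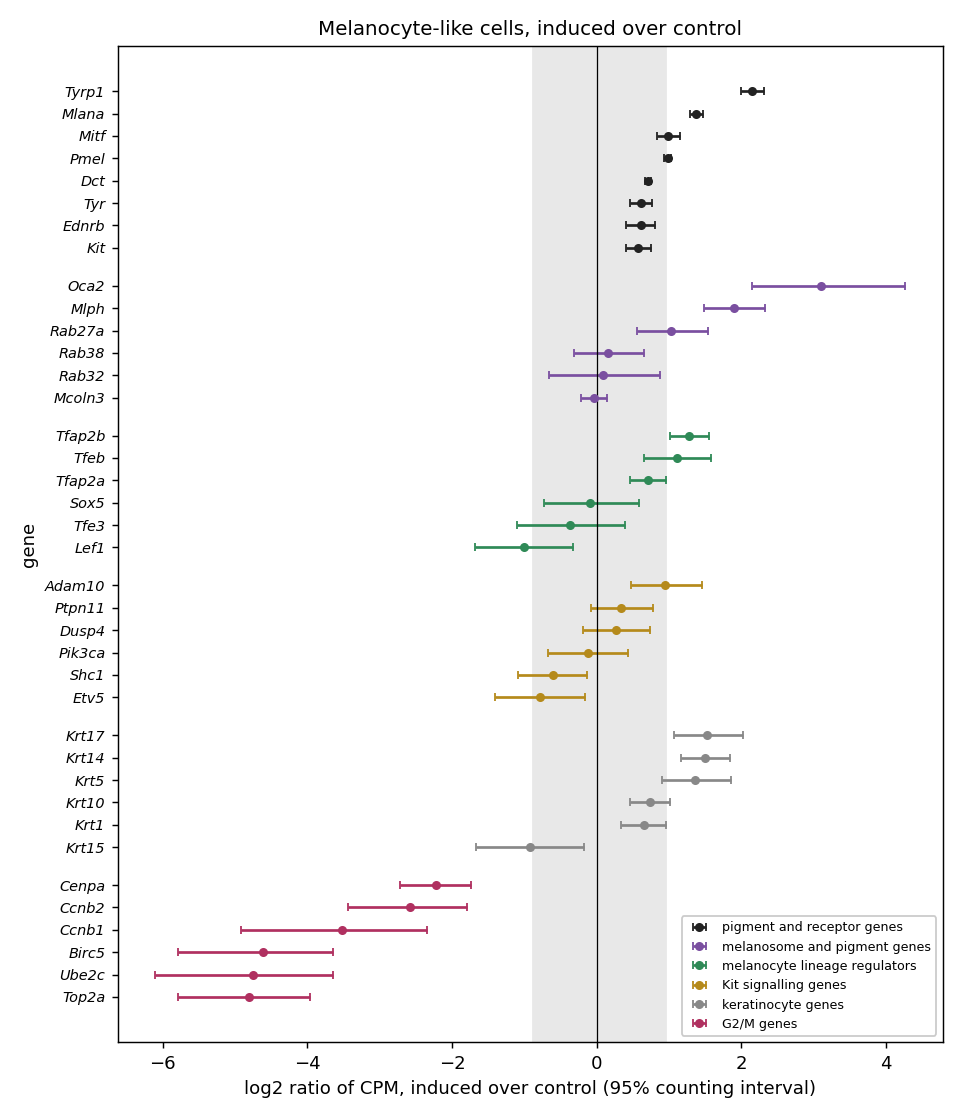
Log2 ratio of CPM, induced over control, in melanocyte-like cells for the 8 pigment and receptor genes and for named genes of 3 pathway lists, the keratins and the G2/M genes, with 95% counting intervals; the grey band holds the middle 95% of 6068 genes with 5 CPM added to both levels, while the points have none added. Tyrp1 (2.15) and Mlana (1.38) lie right of the band, Mitf (0.99) and Pmel (0.98) at its right edge, the other 4 pigment and receptor genes inside its right side, and the G2/M genes lie far to the left.

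The remaining melanosome genes were followed as a list of 26, of which 19 passed the mean level. By the 2-fold measure Oca2 and Mlph were higher and 0 were lower, beside 2.16% and 1.8% of all genes. Of the 19 genes 18 had a ratio above 0, and the median log2 ratio was 0.63, beside 0.0074 for all genes, both with 5 CPM added. Oca2, a melanosome membrane protein, had 9.04 CPM in control and 77.9 CPM in induced cells, a log2 ratio of 3.11 (2.14 to 4.26), and passed the mean level only through the induced library, so nothing is read from its call. Slc7a11, a cystine transporter, went the other way, with 16 control UMIs (16.1 CPM) and 0 induced UMIs, which allow up to 1.54 CPM. It did not pass the mean level. Mlph, which ties melanosomes to the actin motor, had 54.3 and 201.4 CPM, a log2 ratio of 1.89 (1.48 to 2.33). Rab27a, its partner on the melanosome, had 45.2 and 92.2 CPM, just under the 2-fold measure with 5 CPM added. At the other end Mcoln3 had 419.0 and 407.9 CPM, Rab32 had 23.1 and 24.6 CPM and Rab38 had 54.3 and 60.5 CPM, each with an interval of the ratio that spanned 0.

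Regulators of the lineage were 14 genes, of which 10 passed the mean level, 2 were higher by 2-fold and 0 lower, beside the same 2.16% and 1.8% of all genes, with a median log2 ratio of 0.39 with 5 CPM added. Tfap2b, a transcription factor of the AP-2 family, had 141.7 CPM in control and 343.9 CPM in induced melanocyte-like cells, a log2 ratio of 1.28 (1.02 to 1.55). Tfeb, a factor of the Mitf family, had 50.2 and 108.1 CPM, a log2 ratio of 1.11 (0.66 to 1.58). Tfap2a stood at 175.8 and 286.5 CPM. Lef1, a nuclear partner of beta-catenin, had 40.2 and 19.99 CPM, a log2 ratio of -1.01 (-1.68 to -0.33) that missed the 2-fold measure once 5 CPM were added. Tfe3 (27.1 and 21.0 CPM) and Sox5 (32.2 and 30.2 CPM) had intervals that spanned 0.

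Of 19 genes of Kit signalling 13 passed the mean level, 0 were higher and 0 lower by 2-fold, beside 2.16% and 1.8% of all genes, so this number is near the background. Of the 13 genes 9 lay above 0 and 4 below, and their median log2 ratio was 0.14 with 5 CPM added. Adam10, a protease that sheds membrane proteins, had 46.2 CPM in control and 89.2 CPM in induced cells, Ptpn11, the phosphatase SHP2, had 66.3 and 84.04 CPM, and Dusp4, a phosphatase of MAP kinases, had 58.3 and 70.2 CPM. Etv5, an ETS factor, had 44.2 and 25.6 CPM, a log2 ratio of -0.79 (-1.40 to -0.17), the adaptor Shc1 had 67.3 and 44.1 CPM, and Pik3ca had 44.2 and 40.5 CPM. In the endothelin list 3 of 8 genes passed and 1 was higher by 2-fold, a number too small to set against the share of all genes. Plcb4, a phospholipase downstream of G proteins, had 41.2 and 126.6 CPM, while the G protein subunits Gna11 (81.4 and 90.7 CPM) and Gnaq (83.4 and 70.2 CPM) had intervals that spanned 0. In the list of melanocortin and other paracrine genes 4 of 12 passed and again 1 was higher by 2-fold, the hepatocyte growth factor receptor Met (33.2 and 77.9 CPM). Mc1r, the melanocortin receptor, stood at 160.8 CPM and 258.8 CPM, Atrn at 41.2 and 62.5 CPM and Mgrn1 at 52.2 and 62.5 CPM.

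Outside the melanocyte-like cells the 5 pigment genes were scarce. The class held 96.2% of their control UMIs and 97.1% of their induced UMIs. In epithelial cells their sum was 5.33 CPM in control and 11.5 CPM in induced, a log2 ratio of 1.11 (0.94 to 1.27). The share of Dct among the 5-gene UMIs was 64.7% in control epithelial cells and 50.5% in the induced ones, beside 49.3% and 41.9% in melanocyte-like cells. Basal epidermal-like cells had 1.10 and 8.43 CPM of the 5 genes and spinous epidermal-like cells 1.5 and 10.6 CPM. The direction was not the same in each cluster with cells of both libraries. In the cluster led by Pinlyp, Krt25 and Krt75 (83 and 135 cells) the 5 genes stood at 8.42 and 3.45 CPM, a log2 ratio of -1.28 (-2.30 to -0.34), with 26 and 8 UMIs of Dct. In upper follicle-like cells they stood at 1.71 and 12.7 CPM, a log2 ratio of 2.89 (0.74 to 6.08). Free RNA from melanocytes and RNA made by keratinocytes cannot be told apart in these low levels.

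The mix of the 5 genes was like that of the melanocyte-like cells in some groups of cells and unlike it in others. An epithelial cluster of 188 control and 6 induced cells, led by Ptch1, Cntfr and Lhx2 with 5 markers of the hair matrix, held 116 of the UMIs in control. Of these 50.9% (41.4 to 60.3) were Dct, 38.8% (29.9 to 48.3) Pmel and 8.62% (4.21 to 15.3) Mlana, beside 49.3%, 34.9% and 9.06% in control melanocyte-like cells. Another epithelial cluster of 60 control and 51 induced cells, led by the hair shaft genes Krt33a, Krt35 and Krtap8-1, held Dct almost alone. It had 47 Dct UMIs in 25 control cells (29.6 CPM, 21.8 to 39.4) and 49 in 24 induced cells (48.4 CPM, 35.8 to 63.9), with 0 and 6 UMIs of Pmel. Dct made up 95.9% of the 5-gene UMIs there in control and 80.3% in induced, beside the 49.3% and 41.9% of melanocyte-like cells. Outer root sheath-like cells leaned the same way, with Dct at 6.49 and 9.59 CPM and at 79.5% (71.0 to 86.4) and 62.7% (57.3 to 68.0) of the 5-gene UMIs. The unnamed cluster led by Acta2, Tagln and Igfbp4, with 1 control and 24 induced cells, had 23 induced 5-gene UMIs, all of them Dct and all in 2 cells.

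Schwann cell-like cells, the glia of skin nerves that share a neural crest origin with melanocytes, held Tyrp1 almost alone. Among 30 control cells there were 50 Tyrp1 UMIs in 7 cells (161.7 CPM, 120.0 to 213.1), and among 16 induced cells 24 UMIs in 2 cells (199.4 CPM, 127.8 to 296.7). The same cells had 2 and 2 Dct UMIs and 0 and 0 Pmel UMIs. Tyrp1 made up 96.2% (86.8 to 99.5) of the 5-gene UMIs in the control cells, compared with 3.05% in control melanocyte-like cells. The 3 highest cells held 82.0% of the control UMIs, so the level rests on few cells, and the induced level rests on 2.

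**Figure D4:**
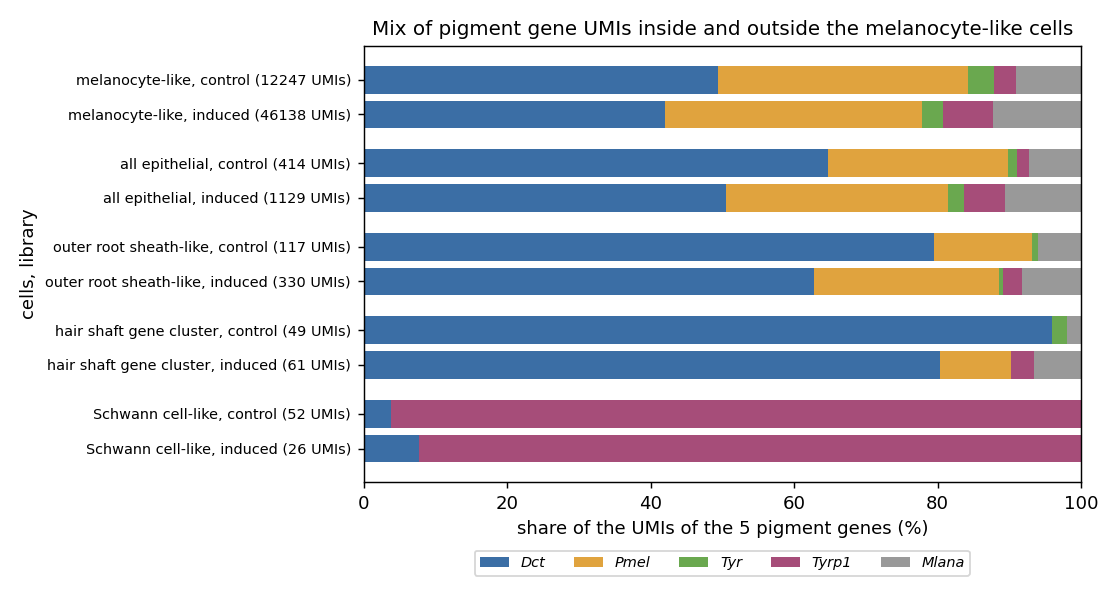
Share of the UMIs of the 5 pigment genes that each gene took (horizontal axis, percent), by cell group and library, with the number of UMIs in the row names. Dct takes 95.9% of the control bar of the hair shaft gene cluster and Tyrp1 96.2% of the control bar of Schwann cell-like cells, while the melanocyte-like bars mix all 5 genes.

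In the fibroblast-like class Dct, Pmel and Mitf were higher by 2-fold in the induced library, where 4.91% of 6235 genes were higher and 2.94% lower. These 3 genes passed the mean of 20 CPM only through the induced library, so nothing is read from their number. Dct had 7 control and 76 induced UMIs and Pmel had 3 and 82. These rested on a cluster led by Lpl, Cfd and Dcn with 3 control and 75 induced cells, in which 3 cells held all 68 Dct UMIs and 95.8% of 72 Pmel UMIs. In the other fibroblast cluster, led by Col1a1, Col3a1 and Lum with 524 and 207 cells, Dct had 7 and 8 UMIs, or 1.36 and 7.11 CPM, a log2 ratio of 2.38 (0.72 to 4.08), and Pmel had 3 and 10, or 0.58 and 8.89 CPM. The summed pigment genes of that cluster stood at 1.95 and 18.7 CPM, a log2 ratio of 3.26 (2.11 to 4.51). Most induced fibroblast-like UMIs of Dct and Pmel thus came from 3 cells of the Lpl-led cluster, but the libraries also differed without it, at a low level. Whether these droplets also held a melanocyte was not tested. Kit had 7 control and 22 induced UMIs in the class, and 14 of the latter lay in 2 cells of the Lpl-led cluster.

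Mitf, unlike the pigment enzymes, was spread over many classes. Melanocyte-like cells held 33.9% of its control UMIs and 71.4% of its induced UMIs, and epithelial cells held 59.3% and 24.2%. Over all epithelial cells Mitf went from 9.03 CPM (8.37 to 9.72) to 5.38 CPM (4.94 to 5.86), a log2 ratio of -0.75 (-0.91 to -0.58), where the median gene had -0.11 with 5 CPM added. In outer root sheath-like cells it stood at 17.0 CPM (14.97 to 19.3) in control and 8.94 CPM (7.72 to 10.3) in induced, a log2 ratio of -0.93 (-1.21 to -0.65), but the clusters of that class were mostly from 1 library each, led for example by Tbx1 and Id4 in control and by Lhx2 and Lgr5 in induced. Its cluster led by Sfrp1, Nppc and Scrg1 held 281 control and 30 induced cells, with Mitf at 26.2 and 47.1 CPM, a log2 ratio of 0.84 with an interval that spanned 0 (-0.34 to 1.85). A cluster led by Pinlyp, Krt25 and Krt75, genes of the inner layers of the follicle, held cells of both libraries (83 and 135). There Mitf stood at 41.3 CPM (35.2 to 48.2) in control and 43.4 CPM (37.3 to 50.4) in induced, a log2 ratio of 0.072 (-0.24 to 0.39), so the difference over all epithelial cells was not found inside this cluster. Other clusters with cells of both libraries differed among themselves on few UMIs. In upper follicle-like cells Mitf had 2 control and 15 induced UMIs, a log2 ratio of 3.09 (0.99 to 6.27), and in the hair shaft gene cluster 2 and 10, a log2 ratio of 2.97 (0.74 to 6.20). A cluster led by Krtap17-1, Tgfb2 and Pthlh had 26 and 1, with an interval that spanned 0 (-7.80 to 0.16). The direction in epithelial cells thus differed between clusters.

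In fibroblast-like cells Mitf went the opposite way, from 11.8 CPM (9.03 to 15.2) to 35.7 CPM (27.4 to 45.6), a log2 ratio of 1.59 (1.06 to 2.13). In the Col1a1-led cluster alone it stood at 11.9 CPM in control and 22.2 CPM in induced, a log2 ratio of 0.90 (0.17 to 1.60). The Lpl-led cluster had 59.2 CPM in its 75 induced cells, with 38 UMIs over 22 cells. Unlike Dct and Pmel, Mitf was thus not held by a few cells there. The opposite ratios in epithelial and fibroblast-like cells were not tested against each other.

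Kit belonged to the pigment cells, which held 90.3% of its control and 89.8% of its induced UMIs. The next level was in endothelial-like cells, with 14.98 CPM (8.56 to 24.3) in 61 control cells and 39.6 CPM (27.4 to 55.3) in 68 induced cells, a log2 ratio of 1.40 (0.51 to 2.36). At 2000 UMIs 1.69% of control and 6.35% of induced endothelial-like cells had a Kit UMI, with overlapping intervals (0.043 to 9.09 and 1.76 to 15.5), and unthinned 19.7% and 25% did. Taken as a mean over cells, the log2 ratio was 0.49. Mast cells, the skin cells best known for Kit beside melanocytes, were not compared. At least 3 of 10 mast cell markers were found in 0 control and 3 induced cells, with 5 Kit UMIs between them, but cells of low depth can miss this rule. An unnamed epithelial cluster of 19 control and 224 induced cells, with a median of 1074 UMIs, had the mast cell genes Cma1, Tpsb2 and Cpa3 among its leading genes. It held 0 and 8 Kit UMIs, or 16.7 CPM (7.20 to 32.9) in induced, where 0 of 42954 control UMIs allow up to 69.8 CPM.

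Ednrb was shared among more classes. Melanocyte-like cells held 45.5% of its control UMIs and 70.7% of its induced UMIs. In Schwann cell-like cells it stood at 236.0 CPM (185.0 to 296.8) in control, near the level of control melanocyte-like cells (268.3 CPM, 237.1 to 302.5) with overlapping intervals, and at 182.8 CPM (114.6 to 276.8) in induced. Endothelial-like cells had 36.5 CPM (26.0 to 49.9) and 137.4 CPM (113.8 to 164.6), a log2 ratio of 1.91 (1.38 to 2.47), and with 5 CPM added 0.93% of genes in that class had a higher ratio. The thinned shares of endothelial-like cells with an Ednrb UMI were 11.9% (4.91 to 22.9) and 22.2% (12.7 to 34.5), and the unthinned shares 37.7% and 51.5%. In endothelial-like cells 4.81% of 6339 genes were higher by 2-fold and 7.54% lower. Ednrb and Kit were among the higher ones, but Kit passed the mean of 20 CPM only through the induced library, and Kitl was not past the 2-fold measure.

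In pericyte or smooth muscle-like cells Ednrb went the opposite way, from 128.3 CPM (106.4 to 153.2) to 58.3 CPM (32.6 to 96.1), a log2 ratio of -1.14 (-2.02 to -0.36). All 121 control UMIs lay in a cluster led by Mef2c, Myl9 and Acta2, which had 38 control cells at 489.7 CPM and 3 induced cells at 746.6 CPM (9 UMIs). That cluster was named from Acta2 and Tagln among its leading genes, but 8 fibroblast markers passed in it beside 3 of pericytes or muscle, so its place in the class is uncertain. The cluster led by Rgs5, a pericyte gene, had 0 UMIs in 52 control cells and 6 UMIs in 46 induced cells. The difference in the class thus moved with the number of cells of the Mef2c-led cluster. Of the 2 genes of the 10 that passed the mean level in the class, Ednrb was lower by 2-fold, as were 11.5% of 6506 genes, and Kitl was not among the 9.3% that were higher. An unnamed cluster of 1 control and 24 induced cells, led by Acta2, Tagln and Igfbp4, held Ednrb at 474.0 CPM (394.3 to 565.2). In fibroblast-like cells and dermal papilla-like cells joined, Ednrb stood at 13.9 and 15.7 CPM, a log2 ratio of 0.18 (-0.47 to 0.80), and 0 of its UMIs were in dermal papilla-like cells of either library. With clusters made at resolution 0.5 the joint ratio was 1.08, above that interval.

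Kit ligand RNA lay almost wholly outside the melanocyte-like cells, which held 0.057% of its control and 0.14% of its induced UMIs. Its level was highest in endothelial-like cells, at 374.5 CPM (338.7 to 413.1) in control and 489.2 CPM (443.5 to 538.3) in induced, a log2 ratio of 0.39 (0.18 to 0.59). Pericyte or smooth muscle-like cells followed at 163.2 CPM (138.5 to 191.1) and 256.4 CPM (198.3 to 326.2). Within their Rgs5-led cluster the values were 208.2 CPM (175.7 to 245.0) and 269.0 CPM (208.0 to 342.2), with intervals that overlapped. Then came outer root sheath-like cells at 88.3 CPM (83.5 to 93.4) and 98.7 CPM (94.5 to 102.9) and Schwann cell-like cells at 71.1 CPM (44.6 to 107.7) and 74.8 CPM (34.2 to 142.0). The intervals of the last pair overlapped, so their order is not set.

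Among keratinocytes the level was higher in the follicle than in the upper epidermis. The hair shaft gene cluster had 72.4 CPM (59.8 to 87.0) in control and 124.4 CPM (103.6 to 148.1) in induced, basal epidermal-like cells 19.5 CPM (17.0 to 22.3) and 35.9 CPM (33.6 to 38.3), upper follicle-like cells 10.3 CPM (5.31 to 17.9) and 19.5 CPM (11.9 to 30.1), and spinous epidermal-like cells 2.43 CPM (1.69 to 3.40) and 1.97 CPM (1.40 to 2.71). Sebaceous gland-like cells had 8.03 CPM over 498 control cells, and 5 UMIs over 16 induced cells, all in 1 cell. Basal epidermal-like cells had a log2 ratio of 0.88 (0.66 to 1.10), but their clusters, led by H19 and Wnt4 in control and by Igfbp2 and Wnt10a in induced, came almost wholly from 1 library each. At 2000 UMIs 4.42% (2.85 to 6.51) of control and 5.42% (4.05 to 7.09) of induced basal epidermal-like cells had a Kitl UMI, and unthinned 27.8% and 52.8% did at median depths of 19103 and 26813 UMIs.

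Over all epithelial cells, which held 79.5% of control and 87.8% of induced Kitl UMIs, Kitl went from 35.9 CPM (34.5 to 37.2) to 43.2 CPM (41.9 to 44.5). This was a log2 ratio of 0.27 (0.20 to 0.34), a difference of 1.20-fold, where the median gene had -0.11 with 5 CPM added. Unnamed epithelial cells, with 33.6% of control and 24.0% of induced Kitl UMIs, went the other way. They stood at 44.6 and 40.7 CPM, a log2 ratio of -0.13 (-0.25 to -0.011). The Kitl ratio was also not the same in each cluster with cells of both libraries. In the cluster led by Pinlyp, Krt25 and Krt75 Kitl had 4.85 and 17.3 CPM (19 and 70 UMIs), 3.56-fold (2.12 to 6.27), and in the hair shaft gene cluster 1.72-fold (1.32 to 2.23), while in upper follicle-like cells and the Krtap17-1-led cluster the intervals of the log2 ratio spanned 0. The Sfrp1-led outer root sheath-like cluster (281 control and 30 induced cells) had Kitl at 56.6 and 47.1 CPM. Its log2 ratio was -0.27, with an interval that spanned 0 (-1.42 to 0.70). Kitl was the only 1 of the 10 genes with a mean of 20 CPM in epithelial cells and it was not past the 2-fold measure, which 2.25% of 5863 genes were upward and 4.18% downward. Fibroblast-like cells had 26.3 CPM (22.1 to 31.1) and 46.4 CPM (36.9 to 57.6). In their Col1a1-led cluster, however, the values were 24.7 CPM (20.6 to 29.4) and 23.1 CPM (15.1 to 33.9), and the higher class value came with the Lpl-led cluster (87.2 CPM).

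**Figure D5:**
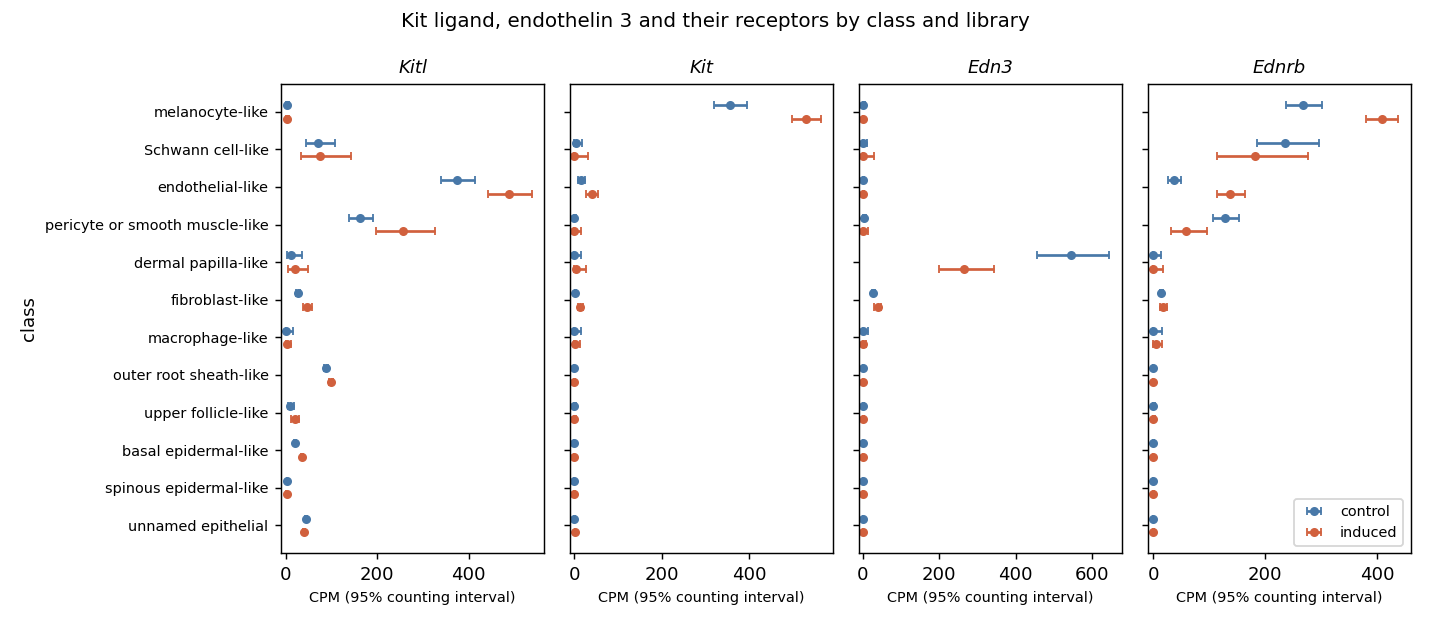
CPM of Kitl, Kit, Edn3 and Ednrb (horizontal axes, linear, a scale per gene) in 12 cell classes for control (blue) and induced (orange) cells, with 95% counting intervals. Kitl peaks in endothelial-like cells (374.5 and 489.2 CPM), Kit in melanocyte-like cells, Edn3 in dermal papilla-like cells (544.7 and 264.2 CPM), and Ednrb in melanocyte-like and Schwann cell-like cells.

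Endothelin 3 came from the dermal papilla and the fibroblasts, which together held nearly all of its 287 control and 125 induced UMIs. Dermal papilla-like cells, the mesenchymal cells at the base of the follicle, held 47.0% of the control UMIs and 44.0% of the induced UMIs, and fibroblast-like cells held 50.2% and 55.2%. In CPM, dermal papilla-like cells stood at 544.7 CPM (456.7 to 644.7) in 40 control cells and 264.2 CPM (199.0 to 343.9) in 84 induced cells, a log2 ratio of -1.04 (-1.52 to -0.58). At 2000 UMIs Edn3 was found in 47.5% (31.5 to 63.9) of 40 control cells and 21.6% (9.83 to 38.2) of 37 induced cells, with intervals that overlapped. Unthinned, 67.5% and 16.7% of the cells had a UMI.

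The depth of the dermal papilla-like cells moved with this value. Their median was 6009.5 UMIs in control and 1764.5 UMIs in induced cells, and 3 cells held 34.8% of the control and 69.1% of the induced Edn3 UMIs. With the stricter filter on cells the log2 ratio was -0.50, and with doublets kept it was -0.26 with an interval that spanned 0. In dermal papilla-like cells 11.4% of 7045 genes were lower and 11.9% higher by 2-fold, and Edn3 was among the lower ones. Mitf had 4 and 10 UMIs there, passed the mean level only through the induced library, and had a log2 ratio whose interval spanned 0 (-0.22 to 3.70). Asip, the papilla's signal for yellow pigment, went the same way as Edn3, from 928.0 CPM (812.0 to 1056) to 278.6 CPM (211.6 to 360.2). Bmp4 (714.2 CPM, 612.8 to 827.5, and 600.5 CPM, 499.8 to 715.5) and Corin (387.4 CPM, 313.8 to 473.0, and 442.0 CPM, 356.3 to 542.0) had overlapping intervals.

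In fibroblast-like cells Edn3 went from 27.9 CPM (23.5 to 32.8) to 39.0 CPM (30.4 to 49.4), a log2 ratio of 0.49 (0.051 to 0.91). In the Col1a1-led cluster it went from 28.1 CPM (23.7 to 33.03) to 59.6 CPM (46.2 to 75.6), a log2 ratio of 1.09 (0.65 to 1.51), and the Lpl-led cluster had 2 UMIs in 75 induced cells. Over papilla-like and fibroblast-like cells together the values were 51.5 and 62.8 CPM, a log2 ratio of 0.28 (-0.032 to 0.59) whose interval spanned 0. The joint value thus hid opposite ratios in its parts, whose difference was not tested.

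Genes with the pattern most like that of each of the 10 were taken over 25 points, each a class in a library with at least 20 cells, by Pearson's r of log2(CPM + 5) among 11617 genes. The points share libraries and the correlations are descriptions. For Tyr the 3 nearest were Tspan10 (r = 0.999), Slc45a2 and Mc1r, for Pmel they were Mlana (0.990), Trpm1 and Tyr, for Mlana they were Tspan10 (0.995), Tyr and Slc45a2, and for Dct they were Ptgds (0.989), Mcoln3 and Scml4. Tyrp1 lay nearest to Synpr (0.992), Pax3 and Sox10. Kit lay nearest to Gpr143 (0.957), Gm19590 and Scml4, and Mitf to Slc6a17 (0.907), Gpnmb and Ptgds. The ligands had other partners, with Epha7 (0.978), Ebf4 and Lrrtm3 for Edn3 and Stc1 (0.846), Col18a1 and Gm12216 for Kitl. Ednrb, spread over several classes, lay nearest to Mthfd1l (0.866), Stard13 and B4galt5.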

How the data were processed

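Single-cell RNA was measured in 1 control and 1 induced library. The deposited values were UMI counts per gene and barcode, with Cell Ranger 6.0.0 and build mm10 named in the submitters' processing notes, and the count unit is that of the deposited matrices per the file headers. Cell-calling settings are not given in the sources used here. The matrices hold 9072 and 9114 barcodes with 100409201 and 119705137 UMIs. Gene positions came from GENCODE vM21 on GRCm38, the same build as mm10, and promoters and microRNAs from RefSeq on GRCm38.p6.

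Barcodes with at least 1000 UMIs, at least 500 genes and under 15% mitochondrial UMIs were taken (5178 and 5258). The 7% with the highest Scrublet scores were removed (362 and 368), because the automatic threshold marked only 3 and 2. Cells of both libraries were clustered together (2000 variable genes, 30 components, 15 neighbours, resolution 1.0, epithelial clusters again at 2.0), leaving out the 10 genes and those of the cell cycle, mitochondria, ribosomal proteins and haemoglobin. Names went to a cluster with 3 or more markers of a list found in 25% of its cells and 1.5-fold above the other cells of its library, if no other list had more markers among its 10 leading genes. Basal epidermal clusters also needed Krt5, and clusters of very low depth for their libraries a marker among those 10 genes. Several clusters with 3 or more markers stayed unnamed by these rules. Counts were summed per class, with exact Poisson, conditional binomial and Clopper-Pearson 95% intervals, and 0 counts were limited at 3. A gene was called 2-fold apart on CPM + 5 when its mean reached 20 CPM. From each list the text names the 3 genes of largest and the 3 of smallest ratio in melanocyte-like cells, and for each of the 10 genes the 3 of most like pattern. The genes, lists and tests were chosen with earlier results of these data known, and Gm13648, Asip, Bmp4 and Corin were added after values were seen. The sums and intervals were tested on simulated counts. Alternatives changed the filter, doublets, resolution, centring, class definition, scaling and added CPM, and those limited to non-cycling cells, little-keratin cells or single classes and the 5 CPM addition were chosen after seeing the data. Clustering used scanpy 1.11.5 with leidenalg 0.10.2 and scikit-learn 1.9.0, intervals scipy 1.17.1, tables pandas 2.3.3 and numpy 2.4.6 and figures matplotlib 3.10.9, all under Python 3.11.15.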

Additional observations from a re-analysis of the deposited data

Results flagged for a closer look

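Mitf, Edn3 and Ednrb had ratios of opposite sign in different cell classes, and none of these differences was tested, since each class has 1 library per group. Mitf had a log2 ratio of 1.59 in fibroblast-like cells and -0.93 in outer root sheath-like cells, but 0.90 in the Col1a1-led fibroblast cluster and 0.84 (-0.34 to 1.85) in the Sfrp1-led outer root sheath cluster, which held cells of both libraries. Edn3 had 0.49 in fibroblast-like cells and -1.04 in dermal papilla-like cells. The latter ratio ran from -2.20 to -0.26 over the alternatives, and its interval spanned 0 at -0.26, with doublets kept. Median depths of the dermal papilla-like cells were 6009.5 UMIs in control and 1764.5 UMIs in induced. Ednrb had 1.91 in endothelial-like cells and -1.14 in pericyte or smooth muscle-like cells, whose 121 control UMIs lay in a cluster of 38 control and 3 induced cells, while the Rgs5-led cluster had 0 and 6 UMIs.

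Barcodes that failed the filter, which no comparison above used, also held pigment RNA. The 5 pigment genes stood at 134.9 CPM (124.4 to 146.1) over 3894 failed control barcodes and at 700.2 CPM (680.1 to 720.8) over 3856 failed induced ones. Of these barcodes, 9 in control and 78 in induced had at least 3 melanocyte markers, and they held 57.1% and 78.0% of the 5-gene UMIs. Mitochondrial UMIs were at or above 15% in 8 and 73 of them, with medians of 16.6% and 24.2%, compared with 6.06% and 6.82% in the melanocyte-like cells kept. Over all barcodes 823 control and 1678 induced ones failed by mitochondrial share. Among the removed doublets 6 control and 23 induced barcodes had at least 1000 CPM of the 5 genes.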

How the results depend on the processing

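Of 60 alternatives over 6 main results, 51 moved the value by less than its counting interval, 9 moved it further and 0 reversed a sign called in the report. With melanocyte cells taken by markers alone (104 and 314 cells, 73 and 235 of them in the cluster), the log2 ratio of the summed pigment genes was 0.69 and that of Kit 0.39. In cells with little keratin the pigment sum was 1.01. Kitl in epithelial cells was 0.35 on totals without mitochondrial, ribosomal protein and haemoglobin UMIs, 0.37 relative to the median gene, 0.45 as a mean over cells and 0.18 with 20 CPM added. Edn3 was -1.04 in dermal papilla-like cells alone, where it ran from -2.20 (resolution 0.5) to -0.26 (doublets kept), and Ednrb in dermal mesenchymal cells was 1.08 at resolution 0.5, and the cause was not tested. Of 210 alternatives for the other results 180 stayed within the interval, 30 moved and 0 were reversed. Lowering the mean level to 5 CPM gave 245 genes higher and 264 lower by 2-fold in melanocyte-like cells (2.55% and 2.74%), in place of 131 and 109. The share of melanocyte-like cells with a Kit UMI had a log2 ratio of 0.78 at 1000 UMIs per cell and 0.094 at 2000. The setting with no CPM added is the main setting itself. No paired analysis was possible because each group has 1 library, and no library could be left out. Depth limits what is said of Kitl and Edn3 in melanocyte-like cells and of classes with few cells, such as Schwann cell-like, mast and dermal papilla-like cells.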
